A study of Mus musculus with 4 samples.

Results

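SR proteins, heterogeneous nuclear ribonucleoproteins (hnRNPs), the SF3 and U2AF factors, the polypyrimidine tract binding (PTB) proteins and the core proteins of the small nuclear ribonucleoproteins (snRNPs) are the best known protein families that choose splice sites. Their genes were picked out of 4 mouse T cell RNA-seq libraries by gene symbol alone: symbols that begin with Srsf, Hnrnp, Sf3a or Sf3b, U2af, Ptbp or Snrp and have the plain letter and number endings of these families. The rule took 58 of the 50600 genes listed: 11 SR genes, 20 hnRNP genes, 3 PTB genes, 11 SF3 and U2AF genes and 13 snRNP protein genes, of which 57 are annotated as protein-coding. The exception, Snrpert, is annotated as a processed pseudogene.

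The study measured RNA in primary T cells of the laboratory mouse substrain C57BL/6NJ. There was 1 group of 4 biological replicates, so levels within these cells and the spread between libraries could be measured, but no condition could be compared. The labels give no treatment, record the sex as not collected and the age as unknown, and carry 1 donor identifier for all replicates. The linked culture protocol is named for the differentiation of CD4+ T cells, and names inside the file headers add Th0 (commonly, stimulated CD4 T cells given no polarising cytokines), activated and a time, none of which the labels state.

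The gene counts of a library summed to between 45110199 (replicate 2) and 127755788 (replicate 3), with 56904311 in replicate 1 and 53379135 in replicate 4, so depth differed 2.83-fold. All 10 T cell markers lay above 1 TPM (a share of reads corrected for exon length), and their summed level was 6581 to 6687 TPM. Summed levels were 20.5 to 24.4 TPM for the pair of CD8 genes, of which Cd8a lay below 1 TPM, 2.51 to 3.64 TPM for 10 myeloid genes (4 at 0), 1.57 to 2.18 TPM for 5 NK genes (1 at 0) and 0 to 0.221 TPM for 6 erythroid genes (4 at 0). The 6 B cell genes summed to 274 to 331 TPM, nearly all of it Ighm, while Pax5 and Ms4a1 lay below 1 TPM. The part of other cells in the levels that follow was not tested, and in bulk RNA fewer cells of a type cannot be told apart from less RNA per cell.

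Splicing joins exons after the spliceosome has recognised the splice sites of a transcript. U1 and U2 snRNPs, each built on a ring of Sm proteins, bind the 5′ splice site and the branch site; U2AF and SF3 bring U2 to the branch site. SR proteins bind exons and mostly favour their inclusion, hnRNPs and PTB proteins often oppose it, and activated T cells are known for changing the splicing of many immune genes, among them Ptprc (CD45).

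Almost every gene of these families was transcribed, most of them at high levels. TPM is the share of a library's reads after division by each gene's exon length. It allows genes to be compared, but the length used moves some levels and orders, as given below. Of the 58 genes, 56 lay above 1 TPM (background 50.5% of 23365 genes), 1 lay below (Snrpn, background 39.6%) and Srsf12 was on neither side. Above 100 TPM lay 41 genes (background 8.68%), 16 lay below (background 90.2%), and Srsf11 at 97.8 ± 3.51 TPM (SD, n = 4) was on neither side. These calls come from limma, with Benjamini-Hochberg adjusted p below 0.05 over all 23365 genes that had at least 1 count. The median of the 58 genes was 204 TPM, against 1.80 TPM over all genes tested and 14.2 TPM over protein-coding ones. Among 15076 protein-coding genes with a count, 39 of the 58 genes were in the top 10% and 54 were above the median. Together the families took 2.00% ± 0.0196 of all counts (SD, n = 4), with 2.02%, 1.98%, 2.02% and 2.01% in replicates 1 to 4. The hnRNP genes alone took 1.11%. In order of mean TPM, 40 of the 57 pairs of neighbouring genes had overlapping ranges over the libraries, so only the coarse order is resolved.

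**Figure D1:**
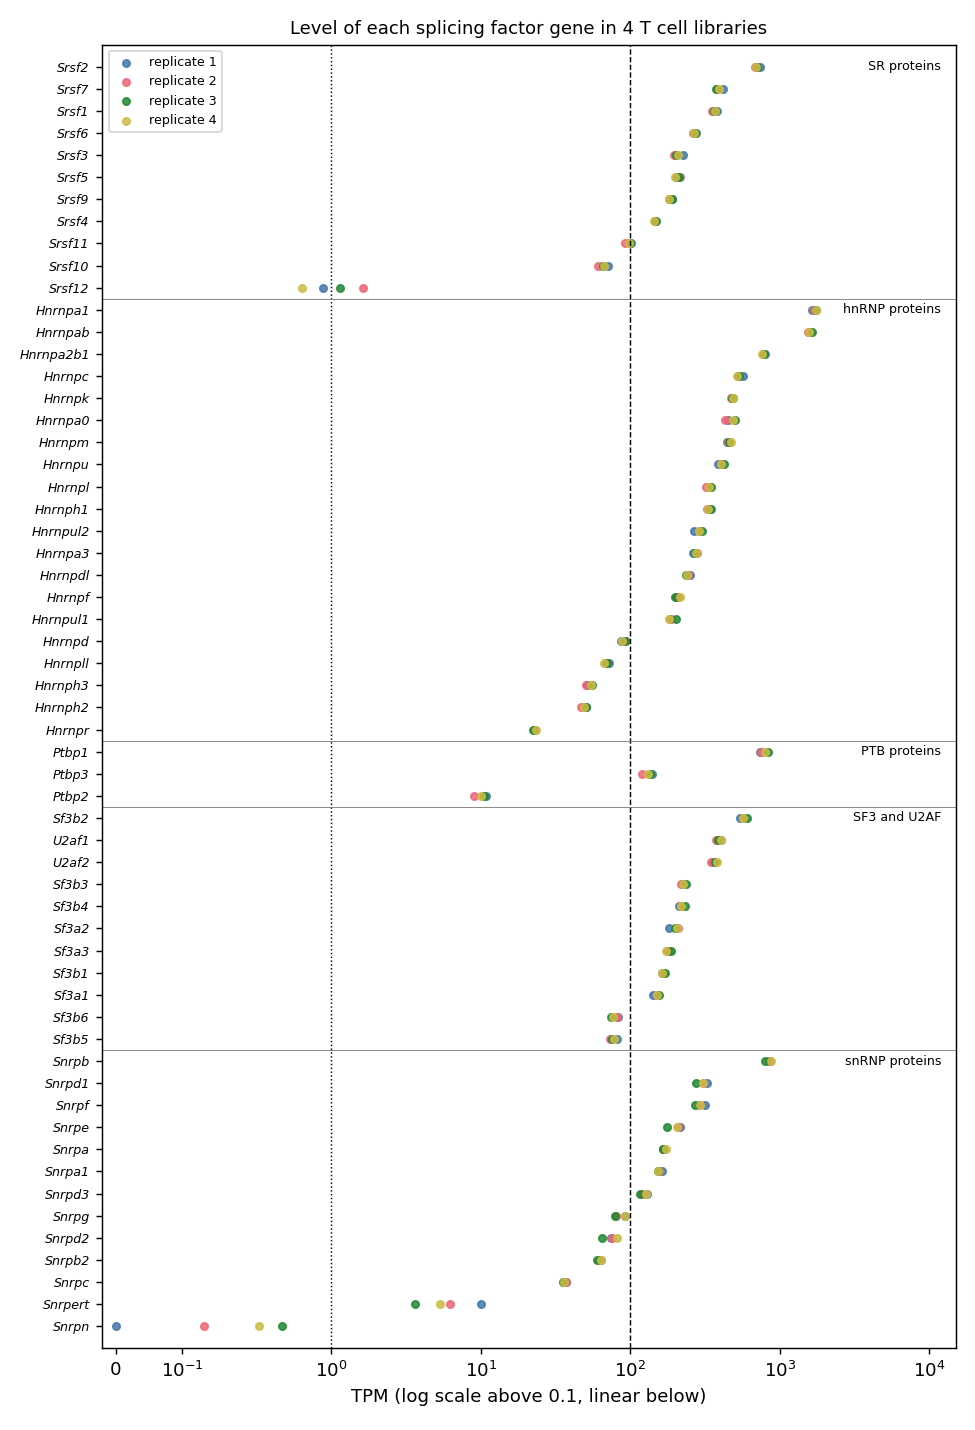
TPM of each of the 58 genes in the 4 libraries, by family, on an axis that is logarithmic above 0.1 and linear below; each point is 1 library, and dotted and dashed lines mark 1 and 100 TPM. Points of 1 gene lie close together except for Srsf12, Snrpert and Snrpn, the 3 lowest genes.

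The sequence before the transcription start was read for 1 abundant gene of each family, to show what such promoters hold. Each has a RefSeq start within 50 bases of its annotated 5′ end. Hnrnpa1, Ptbp1, Srsf2 and Sf3b2 were the highest genes of their families. Snrpf, at 291 TPM, was not the highest snRNP gene, so the choice was not by level alone. The 150 bases before the start are printed 5′ to 3′ on the gene's strand, from RefSeq on GRCm38.p6: Hnrnpa1 at chr15:103240247-103240396 (plus strand), Snrpf at chr10:93589659-93589808 (minus), Ptbp1 at chr10:79854282-79854431 (plus), Srsf2 at chr11:116853095-116853244 (minus) and Sf3b2 at chr19:5295458-5295607 (minus). Capitals mark matches on either strand to 5 short motifs, and none of the printed matches overlap. The TATA box was searched as the letters TATAAA. The CCAAT box, which many housekeeping promoters carry, was searched as spelled in its name. The E-box, bound by factors such as Myc, was searched as the letters CACGTG. The core shared by ETS factors was searched as the letters CGGAAG. The GC box, bound by Sp1 and its relatives, was searched as the letters GGGCGG.
Hnrnpa1: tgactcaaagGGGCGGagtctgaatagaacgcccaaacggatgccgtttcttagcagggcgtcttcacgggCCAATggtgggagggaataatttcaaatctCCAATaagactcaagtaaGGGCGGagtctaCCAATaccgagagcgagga
Snrpf: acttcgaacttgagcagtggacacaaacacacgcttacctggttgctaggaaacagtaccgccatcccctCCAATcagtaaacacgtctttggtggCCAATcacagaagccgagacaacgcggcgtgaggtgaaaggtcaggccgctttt
Ptbp1: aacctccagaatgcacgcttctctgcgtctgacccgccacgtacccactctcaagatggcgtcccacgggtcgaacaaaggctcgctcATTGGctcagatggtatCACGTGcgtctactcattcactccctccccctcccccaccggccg
Srsf2: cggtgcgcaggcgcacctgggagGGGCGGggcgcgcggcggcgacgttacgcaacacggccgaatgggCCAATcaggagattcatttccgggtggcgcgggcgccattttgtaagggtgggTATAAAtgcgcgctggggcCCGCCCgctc
Sf3b2: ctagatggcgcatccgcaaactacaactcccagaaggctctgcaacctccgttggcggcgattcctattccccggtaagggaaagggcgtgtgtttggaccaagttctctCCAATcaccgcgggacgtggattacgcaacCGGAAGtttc

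Each of these 5 windows holds at least 1 CCAAT box on one strand or the other, Hnrnpa1 holds 3, and only Srsf2 holds a TATA box. RefSeq windows from 250 bases before to 50 after the start were found for 49 of the 58 genes, 67 windows in all. An ETS core was in 49.3% of them, against 16.9% of 32851 windows of all genes and 39% of the 1955 windows of genes above 100 TPM. A GC box was in 70.1% of them, against 35.7% and 66.5%, and a CCAAT box in 46.3%, against 37.4% and 39.2%. An E-box was in 11.9%, against 7.15% and 12.8%, and a TATA box in 10.4%, against 13.6% and 7.42%. The GC box and E-box shares were thus close to those of all genes above 100 TPM, which include genes of these families. A match is a description of the letters, and some genes have several windows that overlap.

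The SR proteins share a domain rich in arginine and serine. Of their 11 genes 8 lay above 100 TPM and the family median was 206 TPM. Srsf2, which binds exonic enhancers, was the highest, with 738, 685, 699 and 698 TPM in replicates 1, 2, 3 and 4. It was followed by Srsf7 at 392 ± 20.2 TPM (SD, n = 4) and by Srsf1, the founding member of the family, at 365 ± 11.7 TPM. Srsf6, Srsf3, Srsf5, Srsf9 and Srsf4 lay between 146 and 270 TPM. Srsf10, a factor that represses splicing when it is dephosphorylated, lay below 100 TPM at 66.2 ± 4.29 TPM (SD, n = 4). Its paralog Srsf12 was near the lower threshold, with 0.88, 1.64, 1.13 and 0.63 TPM in replicates 1 to 4 from 46, 68, 131 and 31 counts. Its libraries fell on both sides of 1 TPM, while no library of any other SR gene was below 60 TPM.

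hnRNPs coat nascent transcripts. All 20 genes lay above 1 TPM and 15 lay above 100 TPM, with the highest family median, 311 TPM. Hnrnpa1, which often represses exons, was the most abundant of the 58 genes and ranked 39 among protein-coding genes. Its levels were 1656, 1690, 1752 and 1754 TPM in replicates 1, 2, 3 and 4. Hnrnpab, which is related to the AU-rich element binding protein Hnrnpd, reached 1591, 1550, 1653 and 1577 TPM in replicates 1 to 4. The lowest Hnrnpa1 value lay just above the highest Hnrnpab value, so the ranges met without overlapping. This order depends on the length used: over the longest annotated transcript Hnrnpa1 came to 835 TPM, below Hnrnpab at 1481 and Hnrnpa2b1 at 1114 TPM. That Hnrnpa1 transcript, from the annotation GENCODE M21, has 3118 bases, more than the 1918 summed exon bases of the M13 counts. The annotations thus differ at this gene, and the part of this in the change was not tested. Next came Hnrnpa2b1, which also sorts RNAs for transport, at 779 ± 17.7 TPM, Hnrnpc, which binds runs of uridine, at 535 ± 21.8 TPM, and the cytidine-binding Hnrnpk at 480 ± 7.71 TPM (SD, n = 4 each). Hnrnpa0, Hnrnpm and Hnrnpu lay between 404 and 467 TPM, where Hnrnpm shares 24.9% of its exon bases on the same strand with March2 and pairs there count for neither gene, and Hnrnpl, which binds CA-rich RNA, and Hnrnph1, which binds runs of G, lay at 337 and 335 TPM. The 5 genes below 100 TPM were Hnrnpd at 90.2, Hnrnpll at 69.4, Hnrnph3 at 52.9, Hnrnph2 at 49.3 and Hnrnpr at 22.8 TPM.

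Hnrnpll is known in T cells as a repressor of the variable exons of Ptprc, as is Hnrnpl. It lay at 71.8, 68.9, 69.8 and 67.0 TPM in replicates 1, 2, 3 and 4, a spread of 2.01 TPM (SD). Hnrnpl was 4.85-fold higher, a log2 ratio of 2.28 ± 0.0552 (SD, n = 4). Hnrnpll was called below 100 TPM with the summed exon length of 11677 bases, but above it (138 TPM) with the longest transcript, where Hnrnpl was still the higher of the pair.

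PTB proteins bind pyrimidine-rich stretches, Ptbp2 is best known from neurons, and Ptbp3 from blood cells. Ptbp1 reached 743, 754, 831 and 793 TPM in replicates 1, 2, 3 and 4. Ptbp3 lay at 139, 120, 136 and 131 TPM, and Ptbp2 at 10.7, 9.04, 10.5 and 9.95 TPM in the same order. The 3 ranges did not overlap. Ptbp1 was 5.93-fold above Ptbp3 and 76.9-fold above Ptbp2, log2 ratios of 2.57 ± 0.106 and 6.27 ± 0.116 (SD, n = 4). Ptbp2 was 12.97-fold below Ptbp3, with a log2 SD of 0.0155 over the libraries, and both genes were lowest in replicate 2. With the longest transcript these folds came to 6.27 for Ptbp3 over Ptbp2 and 51.0 for Ptbp1 over Ptbp2, and without length correction Ptbp1 was 39.99-fold above Ptbp2 and 3.76-fold above Ptbp3. The order of the 3 genes was the same under each length treatment.

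The SF3 complex and U2AF define the branch site and the 3′ splice site. All 11 genes lay above 1 TPM and 9 lay above 100 TPM. Sf3b2, an SF3B subunit that contacts RNA near the branch site, was the highest, with 545, 568, 604 and 571 TPM in replicates 1, 2, 3 and 4. Sf3b1, the large scaffold of SF3B, reached 165 ± 4.08 TPM and its partner Sf3b3 225 ± 8.22 TPM (SD, n = 4). Sf3b4 lay at 220 TPM, while the small subunits Sf3b6 and Sf3b5 lay below 100 TPM at 79.0 and 76.5 TPM. The 6 SF3B genes thus covered a 7.48-fold range, and the 3 SF3A genes, whose products are found in 1 complex, a 1.32-fold range from Sf3a1 at 150 to Sf3a2 at 198 TPM. U2af1, which reads the AG at the 3′ splice site, had 402, 376, 388 and 406 TPM in replicates 1 to 4, and U2af2, which binds the pyrimidine tract, had 359, 345, 368 and 378 TPM. U2af1 was the higher in every library, by 1.09-fold, but with the longest transcript U2af2 was the higher, by 1.69-fold. The relative level of these subunits is therefore not settled by the files. The U2af1 paralog U2af1l4, which the symbol rule does not take, was 147-fold lower than U2af1, at 2.61 ± 0.522 TPM (SD, n = 4), or 74.0-fold lower with the longest transcript and 83.1-fold lower without length correction.

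The snRNP proteins had the widest range. The Sm ring holds 7 kinds of protein, and all 7 genes lay above 1 TPM, 5 of them above 100 TPM. Snrpb was the highest with 842, 859, 794 and 869 TPM in replicates 1 to 4. Snrpd1 lay at 304 ± 19.6, Snrpf at 291 ± 18.4, Snrpe at 201 ± 17.0 and Snrpd3 at 123 ± 6.43 TPM (SD, n = 4 each). Snrpg and Snrpd2 lay below 100 TPM, at 85.8 and 74.1 TPM. RNA levels of the ring thus covered an 11.4-fold range, or 7.61-fold with the longest transcript. Of the proteins particular to U1 or U2, Snrpa (U1) lay at 168 TPM, Snrpa1 (U2) at 156 TPM, Snrpb2 (U2) at 62.2 TPM and Snrpc (U1) at 36.4 TPM.

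Snrpn, an imprinted relative of Snrpb that is best known from the brain, was the only one of the 58 genes called below 1 TPM. It had 0, 4, 37 and 11 counts in replicates 1 to 4, or 0, 0.14, 0.47 and 0.33 TPM. The 0 of replicate 1 allows up to 0.0527 CPM (counts scaled to library size, with no length correction), counting 3 reads as the floor. Same-strand exons of Snurf and Gm38393 share 27.3% of its exon bases, and with the options in the headers a pair that overlaps several genes counts for none. Snrpert had 47, 23, 37 and 23 counts, or 10.1, 6.25, 3.61 and 5.29 TPM. It is identical to Snrpe over 52.0% of its length, so its level is uncertain.

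Within 36 pairs of paralogs or partners, the gene that was higher was the same in 4 of 4 libraries for every pair. Without length correction this held for 33 of the 36, and the exceptions, Srsf1 with Srsf2, Hnrnpul1 with Hnrnpul2 and Sf3b1 with Sf3b2, had each gene higher in 2 of 4 libraries. Other pairs of genes were not counted in this way, so a kept order is not shown to be particular to these pairs. The longest transcript moved 15 of the ratios by more than 1.5-fold and the lack of length correction moved 22, so the folds that follow hold for the summed exon length. The exact two-sided sign-flip permutation test gave p = 0.13 for each pair, the smallest p that 4 libraries allow, so no pair could pass 0.05. Outside the pairs with Snrpn or U2af1l4, the largest ratios were those of Ptbp1 over Ptbp2 and of Srsf10 over Srsf12, the latter 59.5-fold with a log2 SD of 0.597. Among SR genes, Srsf1 was 1.96-fold above Srsf9 and Srsf2 was 1.93-fold above Srsf1. Hnrnpa1 was 2.20-fold above Hnrnpa2b1, 6.29-fold above Hnrnpa3 and 3.67-fold above Hnrnpa0. Hnrnph1 was 6.79-fold above Hnrnph2 and 6.33-fold above Hnrnph3, which bind the same kind of RNA. Hnrnpab was 17.7-fold above Hnrnpd, and Syncrip was 3.57-fold above its relative Hnrnpr. Srsf1 and Srsf9 kept their order with all 3 length treatments, whereas Hnrnpa1 lay below Hnrnpa2b1 both with the longest transcript and without length correction.

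**Figure D2:**
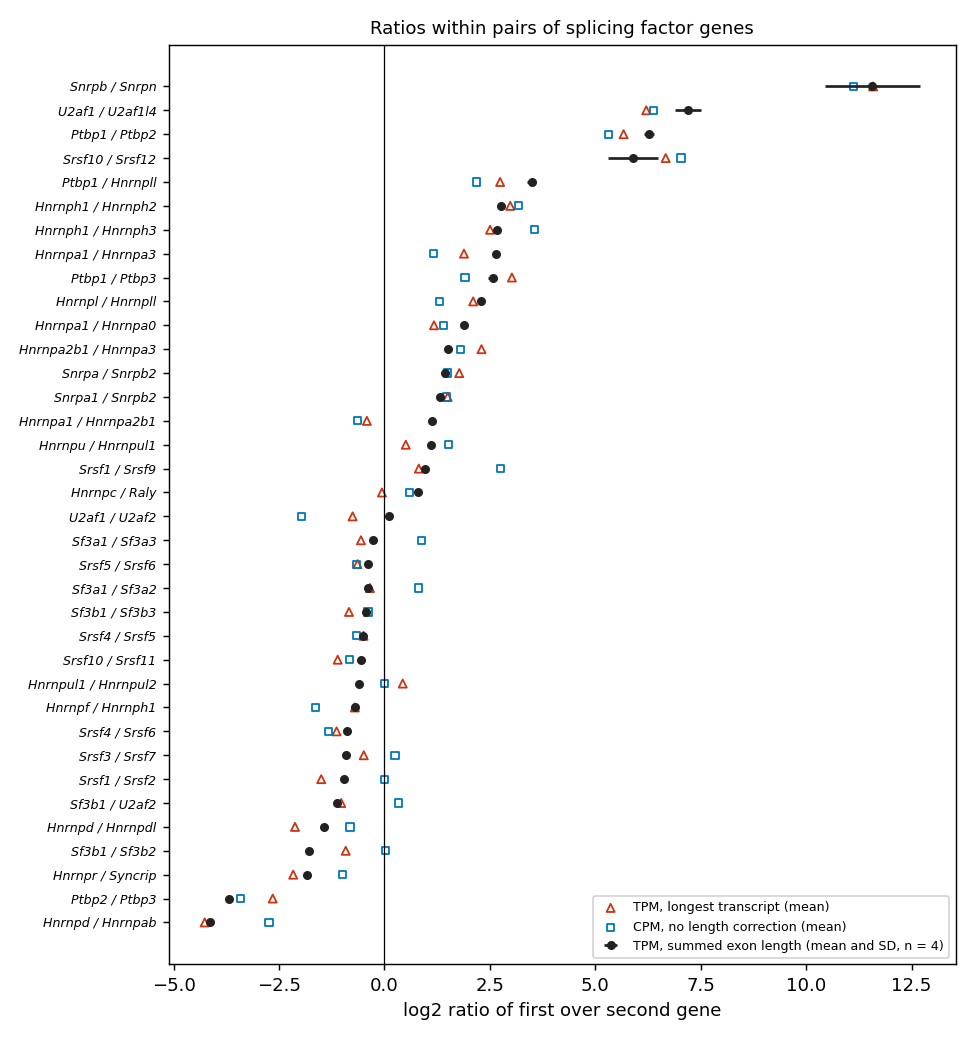
Log2 ratio of the first over the second gene of 36 pairs: filled points and bars are the mean and SD over 4 libraries in TPM, open triangles use the longest transcript and open squares use CPM. The bars are mostly shorter than the distance between the 3 symbols, so the choice of length moved most ratios more than the libraries did.

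Gene length was the choice with the most effect on single levels. With the longest annotated transcript in place of the summed exons, 9 of the 58 genes moved by more than 1.5-fold, 8 up and 1 down. These transcripts were taken from GENCODE M21, while the counts and summed exons are those of M13. For Hnrnpa1, U2af1, Srsf7 and Snrpd1 the transcript is longer than the summed exons. The part of the change of annotation in the moves was not tested. The largest moves were those of Srsf11, from 97.8 to 211 TPM, Hnrnpa1, which came out 2.05-fold lower, and Hnrnpll. Sf3b3 moved to 431 TPM, Hnrnpl to 593 TPM and Snrpe to 326 TPM. Hnrnpr, whose summed exons cover 22199 bases, moved less, to 18.7 TPM. In the threshold test rerun with that length, a run added after seeing the data, 11 genes lay below 100 TPM in place of 16. Hnrnpll and Srsf11 then lay above 100 TPM, and Snrpd2 at 108, Snrpg at 101.2, Sf3b6 at 100.7 and Srsf10 at 97.8 TPM were on neither side, so their place below 100 TPM depends on the length used. Of the 58 genes 10 had 13 near-identical copies, at 95% identity or more over at least 50% of the transcript. Matches on either strand were taken, so some may be genes that overlap at the same place and not separate copies. The copies of U2af1, Srsf4 and Srsf5 with the most counts, Gm10232, Gm12992 and Gm12966, had 480, 546 and 795 counts in all, against 31424, 42809 and 67993 for the genes. With the options in the headers, pairs marked as mapping to several places are not counted, so the levels of genes with a separate copy may be too low.

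**Figure D3:**
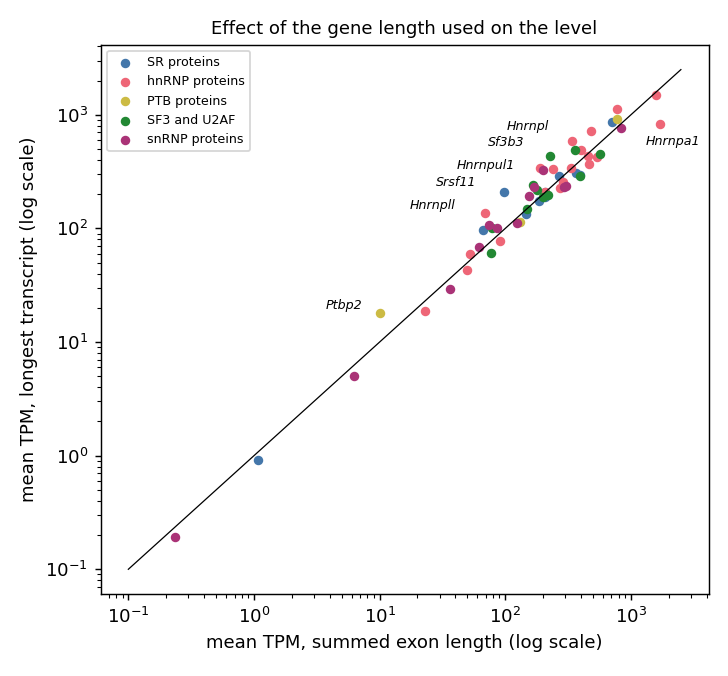
Mean TPM of the 58 genes with the summed exon length (x) and with the longest annotated transcript (y), both on log axes, with the line of equal values. Most genes lie near the line; Srsf11, Hnrnpll, Sf3b3, Hnrnpul1, Ptbp2 and Hnrnpl, named in the plot, lie farthest above it, and Hnrnpa1 lies farthest below.

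Differences between the libraries were small. Of 57 genes tested for variation between libraries beyond that of genes of like abundance, edgeR's goodness-of-fit test called 0 after Benjamini-Hochberg adjustment (background 0.422% of 13279 genes), and the DESeq2 dispersions gave 0 as well. At an unadjusted p below 0.05 the edgeR test gave 2 genes and the DESeq2 dispersions 3, where 5.8% of all genes tested passed in edgeR. The 2 were Snrpe (adjusted p = 0.496) and Snrpd2 (adjusted p = 0.551). The median coefficient of variation was 3.65% over the 58 genes, against 3.77% over the tested genes above 100 TPM, which includes most of them. These p-values measure only the spread between libraries that share a donor identifier.

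One pattern among the small differences was noticed in the values and has no test. All 12 genes of the snRNP family that were tested had their lowest CPM in replicate 3, where 21.4% of all tested genes did. They include the pseudogene Snrpert, which had few counts and shares sequence with Snrpe. Without it the count was 11 of 11. Snrpn, left out by the low-count filter, was instead highest in replicate 3, at 0.47 TPM from 37 counts. Snrpe had 214, 208, 176 and 205 TPM in replicates 1, 2, 3 and 4. Snrpd2 had 74.7, 75.4, 64.9 and 81.1 TPM, and Snrpf 314, 290, 269 and 291 TPM in that order. For each of these genes replicate 3 lay below the range of the other 3 libraries. The median deviation of the family from the mean of the 4 libraries was -0.11 on the log2 scale in replicate 3 and 0.07, 0.01 and 0.03 in replicates 1, 2 and 4. Replicate 3 was the deepest library, and short genes in general were low in it: of genes under 2000 exon bases 36% were lowest there, with a median deviation of -0.05, against 17.4% of longer genes. The 6 short tested genes of the family, 5 without Snrpert, and the 6 longer tested ones were all lowest in replicate 3. In TPM the count was 11 of 12, or 10 of 11 without Snrpert, against 16.6% of all tested genes, with Snrpa the exception. The part of depth and length was not tested. Median deviations of the other large families in replicate 3 were 0.01 for hnRNP, 0.03 for SF3 and U2AF and -0.01 for SR genes. Of the 11 SR genes, 7 had their lowest CPM in replicate 2, where 27.1% of all tested genes did. So did 2 of the 3 PTB genes.

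**Figure D4:**
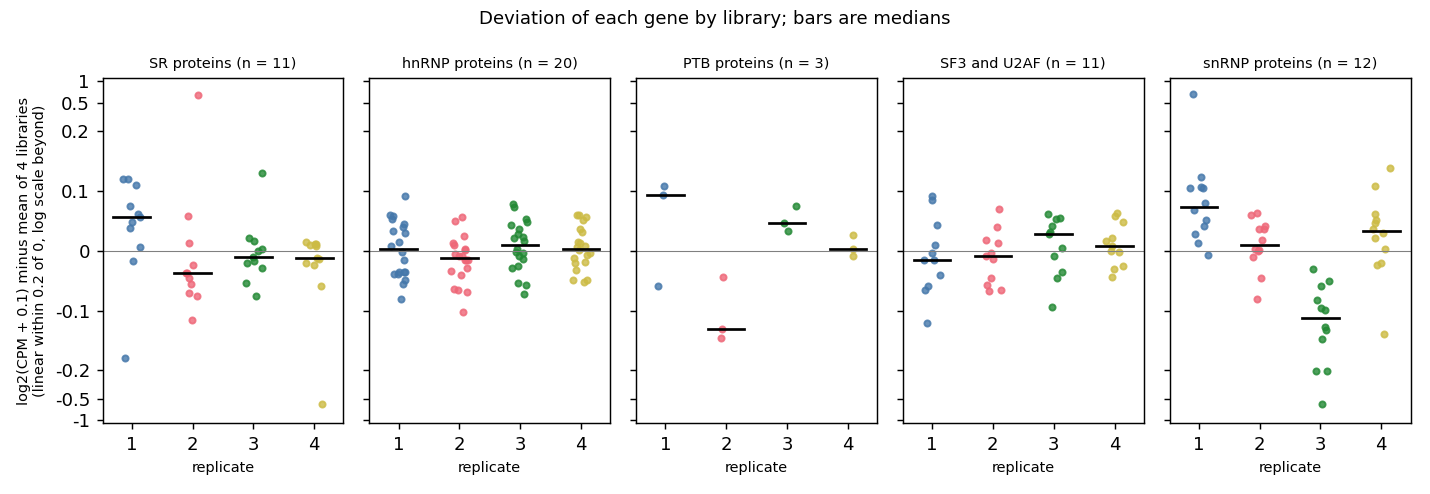
Deviation of each gene's log2(CPM + 0.1) from its mean over the 4 libraries, by family and replicate; points are genes, bars are medians, and the axis is linear within 0.2 of 0 and logarithmic beyond. All 12 snRNP points lie below 0 in replicate 3, while the medians of the hnRNP, SR and SF3 families stay within 0.06 of 0.

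The rest of the splicing machinery was described from 10 lists with 165 measured genes, of which 143 lay above 1 TPM and 60 above 100 TPM, with a median of 67.5 TPM. Over all 23365 genes with a count 50.5% lay above 1 TPM and 8.68% above 100 TPM. All 20 U1, U5 and tri-snRNP genes lay above 1 TPM and 11 above 100 TPM, led by Prpf8, the scaffold of the catalytic core, at 593 ± 11.8 TPM and the helicase Snrnp200 at 247 ± 10.04 TPM (SD, n = 4). All 16 U2 and branch site partners lay above 1 TPM and 9 above 100 TPM, among them the helicase Ddx39b at 514 TPM, Phf5a, a small SF3B subunit named outside the Sf3b series, at 412 TPM, Puf60 at 392 TPM and the branch point binding protein Sf1 at 284 TPM. All 19 Prp19 complex and step factors lay above 1 TPM and 7 above 100 TPM. The LSm ring and the minor spliceosome, which removes a rare class of introns, had lower levels: all 8 genes of each lay above 1 TPM, with 1 above 100 TPM (Lsm4, 360 TPM) and none above 100 TPM in turn, where Snrnp25 at 107 TPM was on neither side.

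The regulators of SR proteins had a median of 49.7 TPM, against 206 TPM for the SR genes. Of these 11 SR protein kinase, phosphatase and import genes 10 lay above 1 TPM and 1, the phosphatase regulator Ppp1r8 at 135 ± 2.42 TPM (SD, n = 4), above 100 TPM. The SR kinase Srpk1 lay at 78.0 ± 0.277 TPM, and Srpk3, best known from muscle, lay below 1 TPM. Of 18 SR-related genes 16 lay above 1 TPM and 10 above 100 TPM, led by Srrm2 at 401 and Rnps1 at 281 TPM. The neural factor Srrm4 had no count in any library and Srrm3 lay below 1 TPM. Of 15 snRNP assembly genes 14 lay above 1 TPM, led by Strap at 339 and the arginine methyltransferase Prmt5, which modifies Sm proteins, at 249.4 TPM, while Gemin4 at 1.48 TPM was on neither side. Of 19 hnRNP-related genes 18 lay above 1 TPM and 11 above 100 TPM, led by the poly(C) binding proteins Pcbp1 at 943 and Pcbp2 at 891 TPM, while Ralyl lay below 1 TPM.

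Tissue-restricted splicing regulators were the list with the most genes not above 1 TPM. Of 31 genes 14 lay above 1 TPM, 12 below, 1 on neither side and 4 had no count (Elavl2, Khdrbs2, Celf6 and Rbfox1). Among the list's 27 genes with a count, 14 lay above 1 TPM and 12 below. Over all 23365 genes with a count the shares were near these, at 50.5% above and 39.6% below. The genes above 100 TPM were 5, led by Rbm38 at 227, Khdrbs1 at 169, Rbm10 at 149 and Celf1 at 146 TPM. The list mixes widely expressed and restricted genes, so its counts describe those genes and no class.

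**Figure D5:**
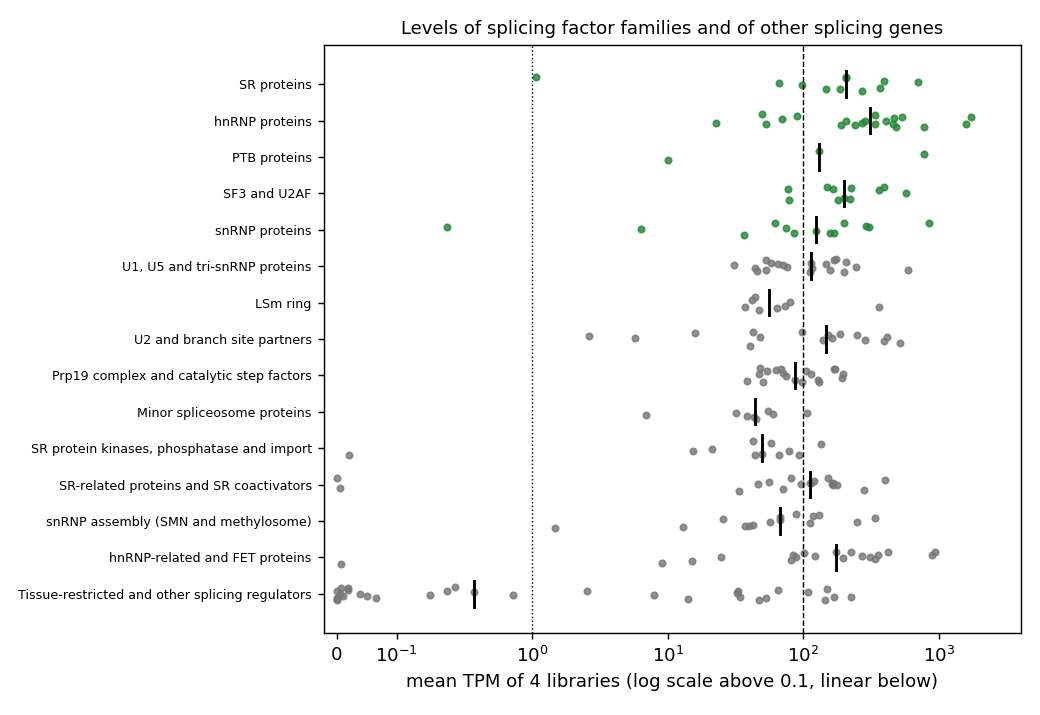
Mean TPM over 4 libraries of every gene of the 5 families (green) and of 10 lists of other splicing genes (grey), on an axis that is logarithmic above 0.1 and linear below; bars are medians, and dotted and dashed lines mark 1 and 100 TPM. The 5 family medians lie between 123 and 311 TPM, and the median of the tissue-restricted list lies at 0.372 TPM.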

How the data were processed

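Total RNA-seq libraries of 4 T cell replicates were analysed. The authors deposited raw read-pair counts for each gene, made, per the file headers, with featureCounts 1.4.6-p4 over GENCODE M13 exons with strand option 2, from alignments named for STAR and without options for multimapping or overlapping pairs. The labels name mm10; neither trimming nor the STAR version is given in the sources used here. The labels say total RNA, but the library protocol they link names polyadenylated RNA.

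The files list 50600 genes; 50376 were matched to GENCODE M21 symbols. TPM was computed here from the counts and the deposited summed exon lengths. The longest transcript of each gene came from GENCODE M21. Mean log2(TPM + 0.1) was tested against 1 and 100 TPM with limma 3.58.1 (intercept only, trended empirical Bayes, one-sided each way, Benjamini-Hochberg over 23365 genes). Variation between libraries used edgeR 4.0.16 (goodness of fit at the trended dispersion, TMM, filterByExpr, 13279 genes); DESeq2 1.42.0 was an alternative. Scripts were tested on simulated data. Near copies came from blastn 2.17.0+, figures from matplotlib 3.10.9, and tables from R 4.3.3, pandas 2.3.3, numpy 2.4.6 and python 3.11.15. The alternatives were other pseudocounts, CPM, a filter on low counts, other scalings, each library left out and the longest transcript, the last of which was added for the counts at 1 and 100 TPM after seeing the data.

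The genes and lists were chosen with earlier results of these data known. Of each other list, the 4 genes highest in TPM and those not above 1 TPM could be named, as could all genes of the families, pairs and marker lists and near copies. Intervals and floors cover counting error only.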

Additional observations from a re-analysis of the deposited data

Results flagged for a closer look

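Of 107 values looked at for a library far from the other 3, 4 stood apart, 1 of them in the 58 genes; chance alone sets apart about 1 in 20 groups. Snrpa, a U1 snRNP protein gene, was highest in replicate 4 at 173.5 TPM, against 166.4 to 166.7 TPM in the others. Outside the 58 genes, the poly(C) binding protein gene Pcbp1 was lowest in replicate 2 at 910.9 TPM, against 950.9 to 957.0 TPM, and Khdrbs1 (Sam68) was lowest in the same library at 159.6 TPM, against 171.1 to 172.1 TPM. Erythroid markers summed to 0.2213 TPM in replicate 1, against 0 to 0.01472 TPM in the others.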

How the results depend on the processing

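No paired analysis was possible because there is only 1 group. Between 55 and 56 genes lay above 1 TPM under every alternative run, and 41 to 43 above 100 TPM, while those below 100 TPM numbered 15 to 16, or 11 with the longest transcript; the genes below 1 numbered 2 in CPM and 0 with the low-count filter, which leaves Snrpn out. Leaving out any 1 library moved no gene's level and no pair's ratio by more than 1 SD. With 4 libraries no mean can move that far, so this outcome was fixed in advance and shows nothing about robustness. Without length correction (CPM), the log2 ratio turned to 0.25 for Srsf3 over Srsf7, -0.64 for Hnrnpa1 over Hnrnpa2b1, -1.96 for U2af1 over U2af2, 0.81 for Sf3a1 over Sf3a2, 0.88 for Sf3a1 over Sf3a3, 0.025 for Sf3b1 over Sf3b2 and 0.34 for Sf3b1 over U2af2. Snrpd1 (74.1), Snrpf (73.0), Snrpe (80.3) and Srsf9 (89.5) then lay below 100 CPM, Hnrnpd (193), Hnrnpll (236), Srsf10 (135) and Hnrnpr (147.5) above it, and Snrpert (0.514) below 1 CPM. With the longest transcript the ratio turned to -0.42 for Hnrnpa1 over Hnrnpa2b1, 0.43 for Hnrnpul1 over Hnrnpul2, -0.059 for Hnrnpc over Raly and -0.76 for U2af1 over U2af2, and Hnrnpll lay above 100 TPM at 138. These turns follow from the length used, which for the longest transcript comes from GENCODE M21 and not from the M13 of the counts.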
